A study of Mus musculus with 30 samples.

Results

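The 39 Hox genes of the mouse HoxA, HoxB, HoxC and HoxD clusters were followed through 30 RNA-seq libraries of embryonic stem cells. The cells were untreated, depleted of cohesin cofactors, or treated with auxin as a control. Members were the rows whose gene symbol is Hox followed by a cluster letter (a, b, c or d) and a number, and they make up 39 of the 55421 genes of the deposited count table. HoxA holds 11 of them, HoxB 10, HoxC 9 and HoxD 9.

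The study measured polyadenylated RNA in E14 mouse embryonic stem cells, a pluripotent line kept here in serum with LIF and the inhibitors PD0325901 and CHIR-99021 on gelatin. There are 5 engineered lines, each grown without treatment or treated for 24 h, which gives 10 groups of 3 libraries. All lines carry Tir1, the plant protein that sends a protein fused to an auxin-inducible degron (AID) to destruction when auxin is present. An FKBP fusion is destroyed in the same way by dTAG-13.

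The TIR1 line (EN148.10) has Tir1 and no degron fusion named in its labels, and was compared with and without 500 µM auxin. In the PDS5AB line (EN293.1) PDS5A and PDS5B carry AID, and in the WAPL line (CMW184) WAPL carries AID. Both received 500 µM auxin. The PDS5AB-NIPBL line (EN331.2) has PDS5A-AID, PDS5B-AID, NIPBL-FKBP and RAD21-Halo, and the WAPL-NIPBL line (EN382.1) has WAPL-AID, NIPBL-FKBP and RAD21-Halo. These 2 lines received 500 µM auxin together with 500 nM dTAG-13, and no library with either agent alone was analysed here. Each genotype is represented by 1 line, so a difference between genotypes cannot be told apart from a difference between lines. The labels do not say that the 3 libraries of a group came from separate cultures, and p-values then measure only the spread between these samples. A degron removes protein, so the messenger RNA of the tagged genes is no check of the depletion, and depletion or loss below names the treatment.

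Hox genes encode homeodomain transcription factors that give cells their position along the head-to-tail axis. In each cluster the genes lie in the order in which they are used in the embryo, with the anterior genes of low number at the 3′ end and the posterior genes of high number at the 5′ end. In embryonic stem cells the clusters are kept nearly silent under Polycomb proteins. Cohesin, a ring complex loaded with the help of NIPBL, extrudes chromatin loops until it meets CTCF or is taken off by WAPL, with PDS5A and PDS5B acting in both steps, and CTCF sites divide the Hox clusters.

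On genome build GRCm38 the HoxA genes lie on chromosome 6 between 52155590 and 52260880, on the minus strand. HoxB lies on chromosome 11 between 96194316 and 96368256, HoxC on chromosome 15 between 102921103 and 103036852, and HoxD on chromosome 2 between 74668310 and 74765142, all on the plus strand. The clusters span 105 kb, 174 kb, 116 kb and 96.8 kb in that order. By the annotated start, Hoxc5 falls between Hoxc9 and Hoxc10, because its annotated gene reaches back to 102967443, and Hoxd3 and Hoxd4 start within 2 bases of each other. The other members follow the order of their numbers.

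Promoter sequence was available in the RefSeq table (build GRCm38.p6) for 22 of the 39 members, in 24 windows. The 250 bases before the start held a median of 12.5 CG dinucleotides in the member windows, from 2 to 35, and a median of 6 over all 32851 windows of the table. CG-rich promoters are the ones that Polycomb proteins occupy in stem cells. Printed here are the 250 bases before the members with a window that were called higher in at least 3 of the 4 depletions below. Hoxb9 and Hoxb13 also met this rule but had no window. The printed members are Hoxb4 and Hoxd8, called in all 4, and Hoxd13, called in 3, a posterior gene whose untreated level differed between the lines. Capitals mark each CG, and all 3 run 5′ to 3′ on the plus strand, at chr11:96318017-96318266 for Hoxb4, chr2:74704365-74704614 for Hoxd8 and chr2:74667975-74668224 for Hoxd13.
Hoxb4: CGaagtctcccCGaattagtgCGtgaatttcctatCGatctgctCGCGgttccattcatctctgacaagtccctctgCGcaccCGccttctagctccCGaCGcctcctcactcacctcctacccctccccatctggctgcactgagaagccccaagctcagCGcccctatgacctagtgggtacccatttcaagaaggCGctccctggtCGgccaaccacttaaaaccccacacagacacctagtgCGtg
Hoxd8: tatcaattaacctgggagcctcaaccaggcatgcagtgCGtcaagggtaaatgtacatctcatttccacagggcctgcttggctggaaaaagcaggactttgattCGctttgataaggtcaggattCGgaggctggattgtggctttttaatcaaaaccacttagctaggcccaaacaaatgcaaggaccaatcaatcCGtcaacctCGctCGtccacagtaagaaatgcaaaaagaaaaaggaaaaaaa
Hoxd13: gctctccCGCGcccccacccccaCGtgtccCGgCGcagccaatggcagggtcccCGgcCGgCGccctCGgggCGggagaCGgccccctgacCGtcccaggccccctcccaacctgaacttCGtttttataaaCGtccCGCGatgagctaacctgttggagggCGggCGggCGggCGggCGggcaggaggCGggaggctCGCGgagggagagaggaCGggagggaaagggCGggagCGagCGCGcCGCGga
The Hoxb4 window holds 14 CG and 58% G or C, the Hoxd8 window 6 CG and 44.4%, and the Hoxd13 window 31 CG and 74.4%. Members called higher in at least 3 depletions thus had promoters of very unlike CG content. No exon in the deposited annotation overlaps these 3 windows.

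Short motifs were searched in the member windows on both strands. The letters TATAAA, where general transcription factors can bind, stand before Hoxa10, Hoxb8, Hoxd4 and Hoxd13, in 4 of 24 windows (16.7%) against 12.4% of all windows. The PBX-HOX composite motif, TGAT and AT with any 2 bases between, stands before Hoxa2, Hoxb1, Hoxb8 and Hoxd11, in 16.7% of member windows against 7.68% of all. The retinoic acid response element, searched as the half-site AGGTCA repeated with 5 or 2 bases between, occurs in no member window in either form, and each form occurs in 3 of all windows (0.00913%). The CTCF core occurs in none of the member windows and in 24 of all windows (0.0731%). These are matches of letters only, and their absence says only that the letters are not in these windows.

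Libraries held between 19632704 and 45539021 counted fragments. CPM, fragments of a gene relative to the library total, was scaled with TMM factors between 0.950 and 1.13, and RPKM below is that CPM divided by the deposited gene length in kb. All 12 markers of pluripotent cells were detected in every group, with summed CPM between 3547 and 6445. Libraries carry numbers in their names: the untreated TIR1 libraries and both PDS5AB groups are numbered from 1 to 21, and all the others from 25 to 45. In each of the 4 depletion comparisons both groups come from the same range of numbers, whereas the auxin comparison in TIR1 and the comparisons of the untreated WAPL and NIPBL-degron lines with TIR1 run across the 2 ranges, and there treatment or line and library number cannot be told apart. Differences of an effect from the TIR1 auxin effect carry the same limit.

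Of the 39 members, 30 passed the filter on low counts and were tested, with a threshold near 0.343 CPM. Of these, 27 also pass without the 3 auxin-treated PDS5AB libraries, and Hoxa2, Hoxd10 and Hoxd11 pass only through them. The 9 members not tested were Hoxa6, Hoxa11, Hoxb2, Hoxb3, Hoxb5, Hoxb6, Hoxd3, Hoxd4 and Hoxd12. None of the 9 exceeded 19 fragments or 0.621 CPM in any library, and Hoxd3 had 3 fragments over all 30 libraries. A group counted as at the floor for a gene where each of its libraries held 3 fragments or fewer, and a fold against such a group is given as a bound.

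In untreated TIR1 cells only 6 members reached a mean of 1 RPKM. Among them Hoxc12 stood at 7.64 RPKM and Hoxc13, required for hair and nails, at 6.46, followed by Hoxb9 at 2.64, Hoxc4 at 1.37 and Hoxb13 at 1.21. The same 6 led in mean RPKM over the 10 groups, where Hoxc12 averaged 7.96, Hoxc13 7.10, Hoxb9 3.68, Hoxc4 2.65 and Hoxb13 2.39. By position these are Hoxc13 and Hoxc12 at the 5′ end of HoxC, Hoxc4 at its 3′ end, and Hoxb13 and Hoxb9 at the 5′ end of HoxB. Hoxc13 alone gave 23.3% of all Hox fragments and Hoxb9 12.9%. The lowest tested gene over the 10 groups was Hoxd11, with a mean of 0.0384 RPKM.

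**Figure D1:**
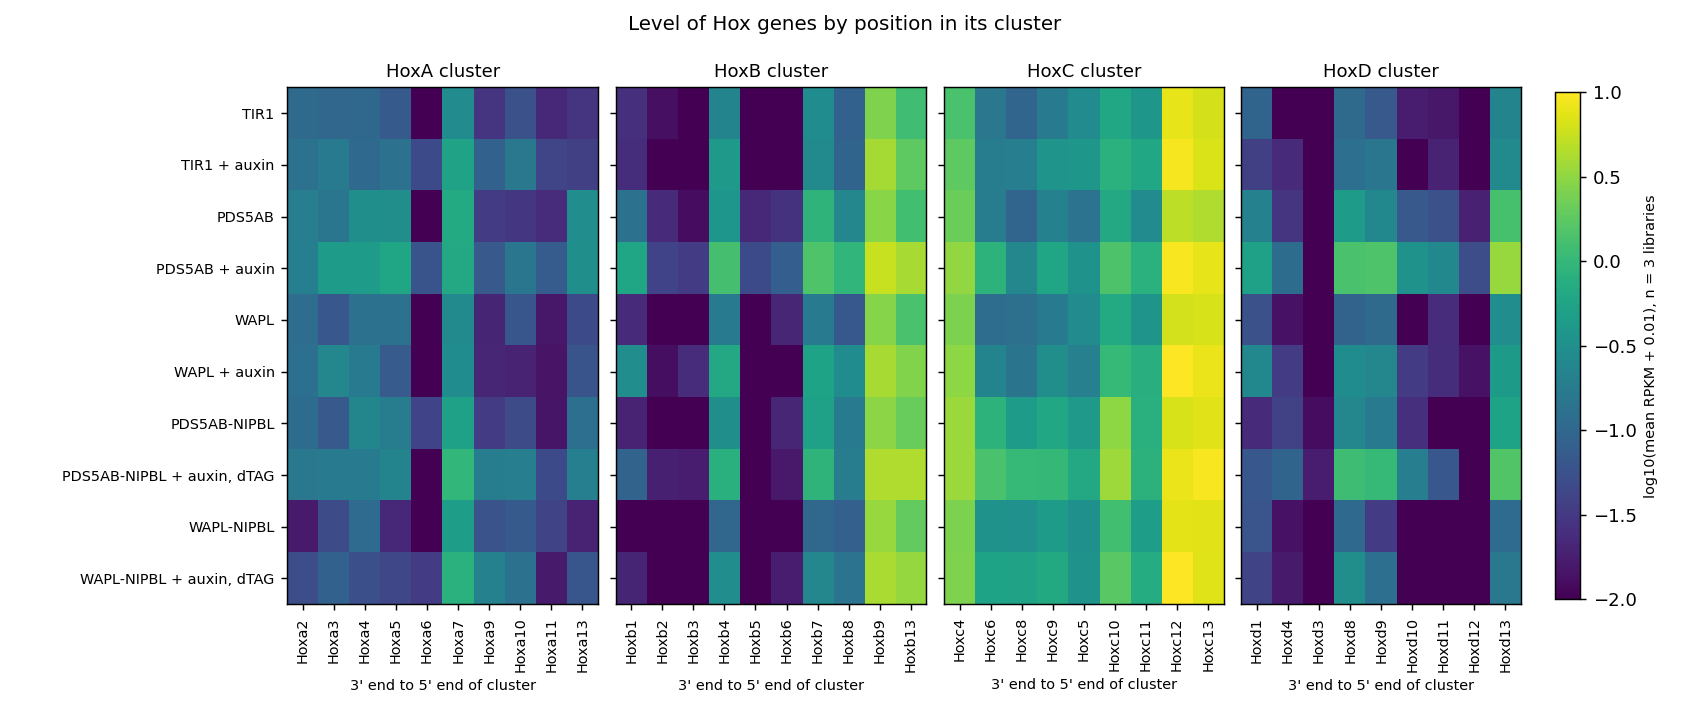
Level of 38 Hox genes in each of the 10 groups, drawn as log10 of the mean RPKM of 3 libraries plus 0.01 (colour scale), with genes ordered from the 3′ to the 5′ end of each cluster by annotated start. Hoxb9, Hoxb13, Hoxc4, Hoxc12 and Hoxc13 are bright in every group, and most of the remaining columns of HoxA, HoxB and HoxD are brightest in auxin-treated PDS5AB cells.

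Shares within a cluster show how far single genes carried it. Hoxb9 gave between 42.99% and 65.2% of HoxB and Hoxb13 between 20.2% and 38.5%. Hoxc13 gave between 37.8% and 51.2% of HoxC. Hoxd13, needed for digits, gave between 24.3% and 57.1% of HoxD and led it in 8 of the 10 groups, while Hoxd8 led in both WAPL-NIPBL groups.

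Auxin on the TIR1 line was the control for the treatment itself. It was followed by a rise of 5 of the 39 members, among them Hoxa7, Hoxa9, Hoxa10 and Hoxb9, while 10.4% of all tested genes were called higher and 9.59% lower (edgeR quasi-likelihood test, adjusted p under 0.05). No member was called lower by edgeR or DESeq2, and at an unadjusted p under 0.05 edgeR gave 1 lower member, Hoxd1. The median log2 fold change of the 30 tested members was 0.44, and that of all tested genes -0.01. In bulk RNA, a change in the share of cells that express a gene and a change of RNA per cell cannot be told apart, here and in every comparison below.

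Hoxa9, known from blood progenitors and leukaemia, went from 0.220, 0.0440 and 0.0355 CPM in the untreated TIR1 libraries to 0.395, 0.475 and 0.397 CPM after auxin. The groups did not overlap, and the log2 fold change was 2.01 ± 0.58 (SE, n = 3 per group, adjusted p = 0.0132, edgeR). Hoxa7, Hoxa9, Hoxa10 and Hoxb9 each lost their call without some single library. Hoxa7 (0.96 ± 0.32) lost it without untreated replicate 2 or 3 or auxin replicate 2 or 3, with adjusted p up to 0.151. Hoxa9 lost it without untreated replicate 2 or 3, up to 0.0815, and Hoxb9 (0.58 ± 0.17) without untreated replicate 1 or auxin replicate 3, up to 0.0738. Hoxa10 (1.68 ± 0.60) lost it without any 1 of the 6 libraries, up to 0.164, and with DESeq2. In HoxC, Hoxc9 was called higher only in alternatives. These were DESeq2 (adjusted p = 0.0496), and by edgeR no filter on low counts (0.0413), the replicate number as a block (0.0496) and leaving out auxin replicate 2 (0.0286). With that block Hoxc4 (0.0283) and Hoxc11 (0.0438, edgeR) were called higher too.

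Loss of PDS5A and PDS5B was followed by the broadest change. Of the 39 members 24 rose, 3 in HoxA, 6 in HoxB and the whole of HoxC (9 of 9), with 6 in HoxD, while 25.8% of all tested genes were called higher and 20.2% lower. Hoxa2, Hoxd10 and Hoxd11 passed the filter on low counts only through the auxin-treated PDS5AB libraries, and the last 2 are among the 24. Of the 27 members that pass it without those libraries 22 rose, 4 of them in HoxD. None was called lower by edgeR at an adjusted or an unadjusted p under 0.05, nor by DESeq2. The median log2 fold change was 1.42 over the 30 tested members and 1.37 over these 27, against 0.04 over all tested genes. Among those tested and not called were Hoxa2, Hoxa4, Hoxa5, Hoxa7, Hoxa9 and Hoxa13. Hoxa9 was called higher without auxin replicate 2 (1.54, adjusted p = 0.0365, edgeR) and without untreated replicate 3 (1.67, adjusted p = 0.0498, edgeR).

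In HoxD, Hoxd13 rose from 3.30, 3.11 and 3.48 CPM to 7.94, 8.46 and 9.27 CPM, a log2 fold change of 1.37 ± 0.15 (adjusted p = 1.94e-08, edgeR). Hoxd9, which lies nearer the 3′ end, rose from 0.438, 0.529 and 0.580 CPM to 3.02, 2.94 and 3.43 CPM (2.59 ± 0.36, adjusted p = 7.02e-07). Every treated library lay above every untreated one for both genes. Hoxd8 rose from 1.01, 1.02 and 1.63 CPM to 3.51, 3.33 and 4.44 CPM (1.61 ± 0.27, adjusted p = 1.2e-05). Hoxd1 (1.36 ± 0.40) rose as well. Hoxd10 (2.37 ± 0.56) and Hoxd11 (2.33 ± 0.50) were tested only through these treated libraries, so their values are a description. Hoxd10, which acts in lumbar motor neurons, averaged 0.597 CPM and Hoxd11, which acts in the forearm, 1.00 CPM in the treated cells.

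In HoxB, Hoxb13, a tail and prostate gene, rose from 2.23, 2.61 and 3.31 CPM to 8.99, 8.04 and 9.80 CPM (1.71 ± 0.21, adjusted p = 7.07e-08, edgeR). Hoxb4, known for the self-renewal of blood stem cells, rose from 0.843, 0.959 and 0.993 CPM to 3.32, 3.72 and 2.87 CPM (1.82 ± 0.31, adjusted p = 1.78e-05). The groups of both genes were well apart. Hoxb1, a hindbrain gene at the 3′ end, rose from 0.236, 0.198 and 0.442 CPM to 1.75, 1.14 and 1.21 CPM (2.18 ± 0.49), and Hoxb8 from 0.506, 0.496 and 0.855 CPM to 2.35, 2.55 and 2.55 CPM (1.98 ± 0.32). Hoxb9 rose by less on the log2 scale (0.94 ± 0.17), as did Hoxb7 (0.77 ± 0.27). The call of Hoxb7 was lost without untreated replicate 1 or auxin replicate 3, with adjusted p up to 0.105.

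In HoxC, Hoxc6, active in the thorax and mammary gland, rose from 0.135, 0.595 and 0.497 CPM to 2.01, 2.03 and 2.09 CPM (2.29 ± 0.35, adjusted p = 4.06e-06, edgeR). Hoxc13, at the 5′ end, rose from 12.3, 11.04 and 8.78 CPM to 22.8, 17.3 and 16.5 CPM (0.82 ± 0.13, adjusted p = 3.62e-06). Here too the groups did not overlap. Hoxc4 rose from 5.77, 5.29 and 5.24 CPM to 9.66, 7.68 and 8.03 CPM (0.64 ± 0.14). The log2 fold changes of Hoxc11 (1.60 ± 0.26), Hoxc9 (1.47 ± 0.37), Hoxc5 (1.34 ± 0.37), Hoxc10 (1.15 ± 0.26) and Hoxc12 (0.89 ± 0.15) lay between those of Hoxc4 and Hoxc6. Hoxc8 (1.47 ± 0.43) was called although its groups overlapped, and lost the call without auxin replicate 3, with an adjusted p of 0.0774.

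HoxA changed least evenly. Hoxa3, a gene of thymus and neck development, rose from 1.32, 0.727 and 0.497 CPM to 3.62, 2.32 and 1.86 CPM (1.63 ± 0.40, adjusted p = 0.00136, edgeR). Hoxa10, a gene of the uterus, was at the floor before treatment and at least 4.83-fold higher after it (adjusted p = 0.00166). Hoxa7, between them, was at 2.09, 1.95 and 1.71 CPM before and 1.79, 1.86 and 1.83 CPM after auxin, and its log2 fold change was -0.07 ± 0.28. Hoxa13, the 5′ end gene, was at 0.708, 0.859 and 0.580 CPM before and 0.821, 0.621 and 0.784 CPM after. For these 2 genes the treated range lay within the untreated one. Hoxa5 (0.95 ± 0.41, adjusted p = 0.056) missed the threshold, and passed it in a fit of only the compared groups (adjusted p = 0.0213, and 0.0103 with the replicate number as a block) and without auxin replicate 2 (0.0486, edgeR).

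**Figure D2:**
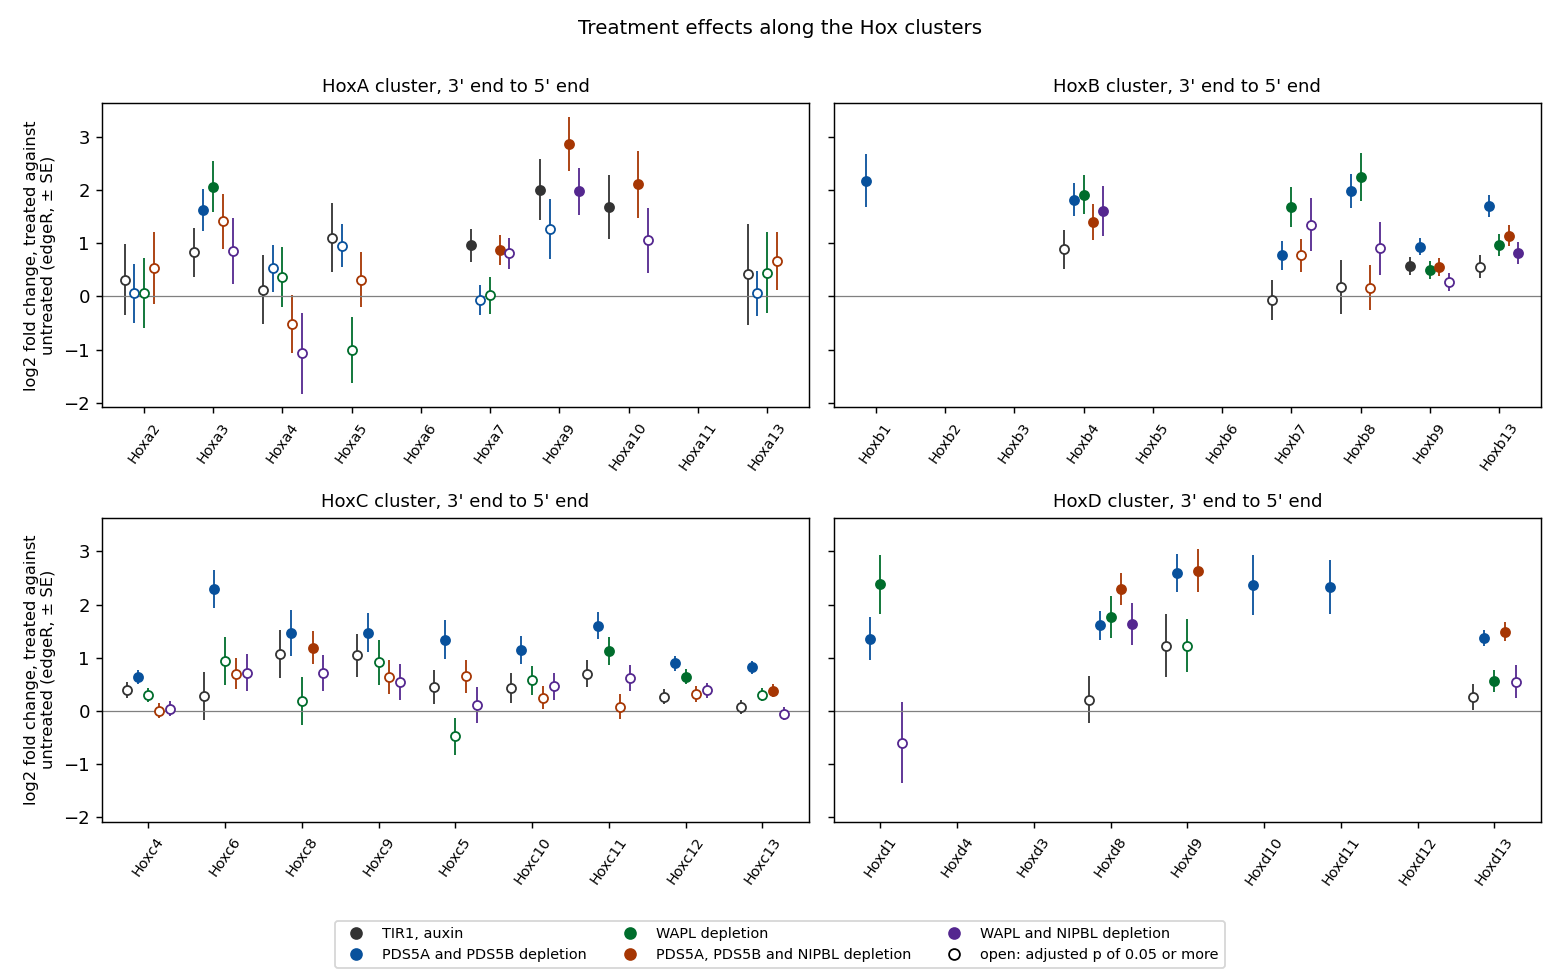
Log2 fold change of treated against untreated cells for 29 tested Hox genes along the 4 clusters (points, edgeR; lines, SE; 3 libraries per group), in 5 colours for the 5 lines; filled points have an adjusted p under 0.05 and open points do not. The plot holds 124 points, and members with a group at the floor are not drawn. In HoxB, HoxC and HoxD the points for PDS5A and PDS5B depletion are all filled, among them Hoxd10 and Hoxd11, which were tested only through those libraries, and in HoxA that of Hoxa3 is.

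Loss of WAPL was followed by a rise of 13 of the 39 members, 2 in HoxA, 6 in HoxB, 2 in HoxC and 3 in HoxD, while 17% of all tested genes were called higher and 15.8% lower. None was called lower by edgeR or DESeq2 with the filter on low counts and all libraries, and Hoxa10 was lower at an unadjusted p under 0.05. It was called lower with no filter on low counts (adjusted p = 0.0446, edgeR) and without untreated replicate 2 (adjusted p = 0.00996, edgeR). The median log2 fold change was 0.61 over the 30 tested members and 0.00 over all tested genes. All 6 tested HoxB genes rose, from Hoxb1 at the 3′ end to Hoxb13 at the 5′ end.

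Hoxb1 was at 0.0927, 0 and 0 CPM in untreated WAPL cells and at 0.843, 0.440 and 0.695 CPM after auxin, at least 6.25-fold higher (adjusted p = 0.000132, edgeR). Hoxb4 rose from 0.309, 0.599 and 0.394 CPM to 2.22, 1.47 and 1.27 CPM (1.91 ± 0.37, adjusted p = 0.000146), and Hoxb8, which acts in blood progenitors and spinal cord, from 0.154, 0.106 and 0.197 CPM to 0.882, 0.616 and 0.726 CPM (2.25 ± 0.45). All treated libraries lay above all untreated ones for these 3 genes. Hoxb7 (1.69 ± 0.38) and Hoxb13 (0.97 ± 0.21) rose, and Hoxb9 (0.50 ± 0.17) lost its call without untreated replicate 2 or auxin replicate 3, with adjusted p up to 0.178.

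Hoxa3 rose from 0.463, 0.176 and 0.354 CPM to 1.80, 0.763 and 1.72 CPM on WAPL loss (2.07 ± 0.48, adjusted p = 0.00126, edgeR). In HoxC, Hoxc11 (1.13 ± 0.26) and Hoxc12 (0.64 ± 0.14) rose. Hoxc12 lies next to Hoxc13, which had 15.8, 16.8 and 15.8 CPM before and 22.5, 18.1 and 19.2 CPM after treatment (0.30 ± 0.12, adjusted p = 0.0583). With the replicate number as a block over all groups, Hoxc13 passed the threshold (0.30 ± 0.11, adjusted p = 0.0247), as did Hoxc4 (0.30 ± 0.12, adjusted p = 0.0472). Hoxc13 also passed with no filter on low counts (0.0451), with only the groups compared (0.0355) and without auxin replicate 2 (0.0329, all edgeR). With the block in a fit of only the compared groups, Hoxc10 (adjusted p = 0.0235) and Hoxd9 (adjusted p = 0.0468) passed as well, and Hoxd9 also with DESeq2 (adjusted p = 0.0414) and without untreated replicate 2.

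In HoxD, Hoxd1 (2.38 ± 0.56) and Hoxd8 rose on WAPL loss, Hoxd8 from 0.247, 0.176 and 0.236 CPM to 0.997, 0.616 and 0.695 CPM (1.76 ± 0.40, adjusted p = 0.000956, edgeR). Hoxd13 was called with a log2 fold change of 0.56 ± 0.21 and an adjusted p of 0.0468. That call was lost in 8 of the 12 alternatives, with adjusted p up to 0.239, among them the fits without untreated replicate 2 or 3, without auxin replicate 1 or 2, and with the block on the compared groups (adjusted p = 0.0839).

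With NIPBL removed together with PDS5A and PDS5B, 13 of the 39 members rose, 3 in HoxA, 3 in HoxB, 2 in HoxC and 5 in HoxD, while 11.4% of all tested genes were called higher and 8.06% lower. None was called lower by edgeR at an adjusted or unadjusted p under 0.05, or by DESeq2. The median log2 fold change was 0.73 over the 30 tested members and 0.00 over all tested genes. In HoxD these were Hoxd8, Hoxd9, Hoxd10, Hoxd11 and Hoxd13, its 5 tested genes from the middle to the 5′ end. Hoxd10 and Hoxd11 were tested only through the auxin-treated PDS5AB libraries. Of the 27 members that pass the filter without those libraries 11 rose, 3 each in HoxA, HoxB and HoxD and 2 in HoxC, with a median log2 fold change of 0.69.

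Hoxd13 rose from 1.43, 1.31 and 1.28 CPM to 4.14, 3.23 and 3.90 CPM (1.49 ± 0.18, adjusted p = 3.46e-07, edgeR). Hoxd8 rose from 0.646, 0.479 and 0.786 CPM to 3.60, 3.49 and 2.54 CPM (2.30 ± 0.30, adjusted p = 1.5e-06), and Hoxd9 from 0.502, 0.218 and 0.295 CPM to 2.28, 2.93 and 1.33 CPM (2.63 ± 0.40, adjusted p = 1.49e-05). No treated library of these 3 genes fell within the untreated range. Hoxd10 was at least 2.99-fold and Hoxd11 at least 2.10-fold higher, both from untreated groups at the floor. The calls of Hoxd8, Hoxd9 and Hoxd13 held in every alternative. Hoxd10 and Hoxd11 were not tested in the fits of only the groups compared and got no adjusted p from DESeq2, and their calls held in the other alternatives.

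In HoxA the genes that rose on loss of NIPBL with PDS5A and PDS5B were Hoxa7, Hoxa9 and Hoxa10. Each of them, and Hoxb9 below, was also called higher after auxin alone in TIR1 cells, with the sizes given above. The PDS5AB-NIPBL effect was not tested against the TIR1 effect. Hoxa9 rose from 0.179, 0.0871 and 0.131 CPM to 1.46, 0.505 and 1.04 CPM (2.87 ± 0.51, adjusted p = 0.000122, edgeR), a call that held throughout. Hoxa7 (0.87 ± 0.28) lost its call without untreated replicate 2 or 3 or treated replicate 1 or 3, with adjusted p up to 0.153, and Hoxa10 (2.11 ± 0.63) without untreated replicate 2 or treated replicate 1, up to 0.134. Hoxa3 (1.42 ± 0.52, adjusted p = 0.052) passed the threshold with the replicate block over all groups (adjusted p = 0.00881), as did Hoxb1, at the floor before treatment (adjusted p = 0.0402). Both also passed with no filter on low counts and without 1 library, and Hoxa3 with DESeq2 (0.0240) and with only the groups compared (0.0457, edgeR).

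In HoxB, Hoxb13 rose from 6.17, 4.18 and 2.78 CPM to 11.02, 8.89 and 9.06 CPM in the same line (1.14 ± 0.20, adjusted p = 0.000103, edgeR). Hoxb4 (1.40 ± 0.34) lost its call without treated replicate 1 (adjusted p = 0.0546), and Hoxb9 (0.56 ± 0.17) without untreated replicate 1 or 2 or treated replicate 3, up to 0.116. In HoxC, Hoxc8, which acts in brachial motor neurons, rose (1.18 ± 0.31), with the call lost without treated replicate 1 or untreated replicate 3, up to 0.0539. Hoxc13 rose from 17.9, 19.5 and 16.2 CPM to 23.0, 23.1 and 23.4 CPM (0.38 ± 0.12), with the groups apart, but lost the call without untreated replicate 1 or 3 or any treated library, up to 0.146. In a fit of only the compared groups with the block, 18 members passed, among them Hoxb7, Hoxc5, Hoxc6, Hoxc9 and Hoxc12.

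The difference between the 2 effects was tested directly. In the PDS5AB-NIPBL line the effect was smaller than in the PDS5AB line for 4 of the 39 members, Hoxb8, Hoxc4, Hoxc6 and Hoxc11, while 4.48% of all tested genes had a smaller and 4.97% a larger effect at an adjusted p under 0.05. No member had a larger effect by edgeR or DESeq2, and at an unadjusted p under 0.05 Hoxa7 and Hoxd11 did. Hoxc11 went from 0.438, 0.727 and 0.469 CPM to 2.09, 1.37 and 1.53 CPM in the PDS5AB line, and from 1.76, 1.39 and 1.64 CPM to 1.96, 1.46 and 1.65 CPM in the line with the NIPBL degron, a difference of -1.53 ± 0.35 on the log2 scale (adjusted p = 0.00534, edgeR). Hoxc4 had 10.4, 9.66 and 7.11 CPM before and 10.9, 9.19 and 7.20 CPM after the combined treatment, a difference of -0.63 ± 0.19. In both genes the untreated level of the NIPBL-degron line already lay within or near the treated range of the PDS5AB line.

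Hoxb8 differed by -1.81 ± 0.53 and Hoxc6 by -1.60 ± 0.46 (adjusted p of 0.0276 and 0.0259, edgeR). Hoxc6 went from 2.69, 2.22 and 1.24 CPM to 4.60, 2.73 and 2.61 CPM in the line with the NIPBL degron, and Hoxb8 from 0.646, 0.348 and 0.262 CPM to 0.683, 0.202 and 0.501 CPM. The call of Hoxc11 held in every alternative. The other 3 were lost with only the groups compared and without some single libraries, with adjusted p up to 0.172 for Hoxb8 (without PDS5AB untreated replicate 1 or 2, or PDS5AB-NIPBL untreated replicate 1 or treated replicate 2 or 3), 0.144 for Hoxc4 and 0.0853 for Hoxc6. Hoxc4 lost it without PDS5AB untreated replicate 2 or 3 or auxin replicate 1, or PDS5AB-NIPBL untreated replicate 1 or 2 or treated replicate 2 or 3, and Hoxc6 without PDS5AB untreated replicate 1, or PDS5AB-NIPBL untreated replicate 1 or 2 or treated replicate 2 or 3. With only the groups compared the count was 1, Hoxc11, and with the replicate block over all groups it was 7. Hoxc4 also lost its call with no filter on low counts, and Hoxc6 with the block in a fit of the compared groups, while DESeq2 gave Hoxb8 no adjusted p. Hoxc12 was called with a smaller effect with DESeq2 (adjusted p = 0.0475) and with the replicate block (0.0476, edgeR), and Hoxc10 with the block (0.0453) and without PDS5AB untreated replicate 3 (0.0419). For Hoxd13 the difference was 0.11 ± 0.23, for Hoxd9 0.05 ± 0.51 and for Hoxd8 0.69 ± 0.41, none past the threshold.

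**Figure D3:**
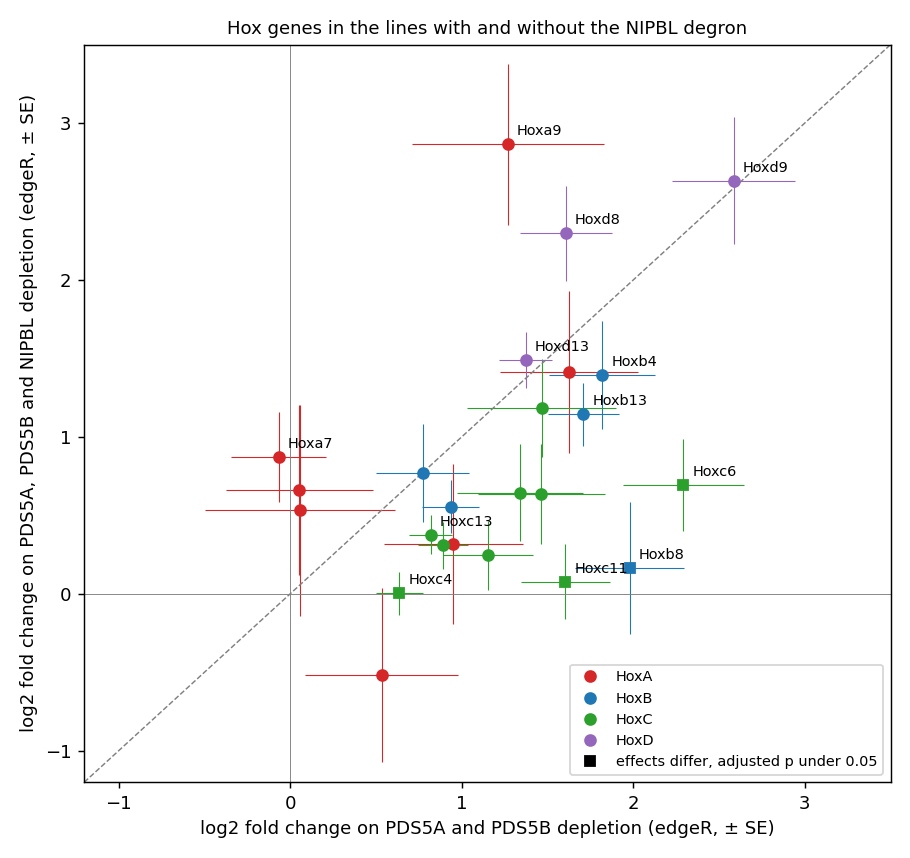
Log2 fold change on PDS5A and PDS5B depletion (x axis) against that on PDS5A, PDS5B and NIPBL depletion (y axis) for 24 tested Hox genes with no group at the floor, coloured by cluster, with SE bars from edgeR and the line of equal change dashed. Squares mark the 4 genes whose 2 effects differ, Hoxb8, Hoxc4, Hoxc6 and Hoxc11, all under the line, while Hoxd8, Hoxd9 and Hoxd13 lie on or above it.

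Loss of WAPL with NIPBL was followed by a rise of 4 of the 39 members, Hoxa9, Hoxb4, Hoxb13 and Hoxd8, while 5.11% of all tested genes were called higher and 3.45% lower. None was called lower by edgeR at an adjusted or unadjusted p under 0.05, or by DESeq2. The median log2 fold change was 0.72 over the 30 tested members and 0.01 over all tested genes. With the replicate number as a block the count was 5, adding Hoxa7 (0.79 ± 0.26, adjusted p = 0.048), which DESeq2 also called (adjusted p = 0.0436), and with the block in a fit of only the compared groups it was 11 of the 15 members tested there, with Hoxa7, Hoxb9, Hoxc6, Hoxc8, Hoxc10, Hoxc11 and Hoxc12 among those added.

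Hoxa9 rose from 0.190, 0.282 and 0.349 CPM to 1.17, 1.07 and 1.10 CPM (1.98 ± 0.44, adjusted p = 0.00352, edgeR), a call that held in every alternative but DESeq2, which gave it no adjusted p. After auxin alone in TIR1 cells the log2 fold change of Hoxa9 was 2.01. No test compared this with the effect in the WAPL-NIPBL line. Hoxb13 rose from 4.74, 4.09 and 3.74 CPM to 7.66, 8.18 and 6.21 CPM (0.82 ± 0.20), with the call lost without untreated replicate 3 (adjusted p = 0.0554). Hoxd8 rose from 0.332, 0.282 and 0.175 CPM to 0.779, 1.04 and 0.609 CPM (1.64 ± 0.40), with the call lost without untreated replicate 3 or treated replicate 2, up to 0.0609. In these 3 genes the groups were apart. Hoxb4 had 0.142, 0.352 and 0.175 CPM before and 1.12, 0.766 and 0.319 CPM after treatment, so that 1 treated library lay within the untreated range. Its call (1.61 ± 0.47, adjusted p = 0.0271) was lost without untreated replicate 1 or 3 or treated replicate 1 or 2, up to 0.158.

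No member differed between the WAPL-NIPBL effect and the WAPL effect at an adjusted p under 0.05 by edgeR over all groups with the filter or by DESeq2, while 3.03% of all tested genes had a larger and 2.16% a smaller effect. At an unadjusted p under 0.05, 3 members had a smaller effect, among them Hoxc13 and Hoxd1, and Hoxa10 had a larger one in the line with the NIPBL degron. For Hoxc13 the difference was -0.36 ± 0.17 (adjusted p = 0.285, edgeR). With the replicate block in a fit of the compared groups Hoxc13 was called with a smaller effect (-0.37, adjusted p = 0.0224, edgeR), 1 of 2 members that passed there. With the block over all groups 1 member passed, Hoxd1 (adjusted p = 0.0497, edgeR), and 2 did with no filter on low counts.

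Over the 4 depletions, whose libraries are all different, Hoxb4, Hoxb13 and Hoxd8 were called higher each time. Hoxb9 and Hoxd13 were called in 3 of them, 15 members in 2, 6 in 1 and 13 in none, the 9 untested members included. Hoxb4 and Hoxd8 lie in the middle of their clusters and Hoxb13 at a 5′ end. Their log2 fold changes ranged from 1.40 to 1.91 for Hoxb4, from 0.82 to 1.71 for Hoxb13 and from 1.61 to 2.30 for Hoxd8. In the TIR1 line the log2 fold changes after auxin were 0.89 ± 0.37 for Hoxb4, 0.56 ± 0.22 for Hoxb13 and 0.21 ± 0.44 for Hoxd8, none of them called by edgeR over all groups with the filter. Hoxb13 was called higher there in 6 alternatives: with DESeq2 (adjusted p = 0.0477), and by edgeR with no filter on low counts (0.0191), with only the groups compared (0.0240), with the replicate block (0.0330), with both of these (0.0281) and without untreated replicate 1 (0.0483). Hoxb4 was called higher with only the groups compared (0.0479, edgeR).

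**Figure D4:**
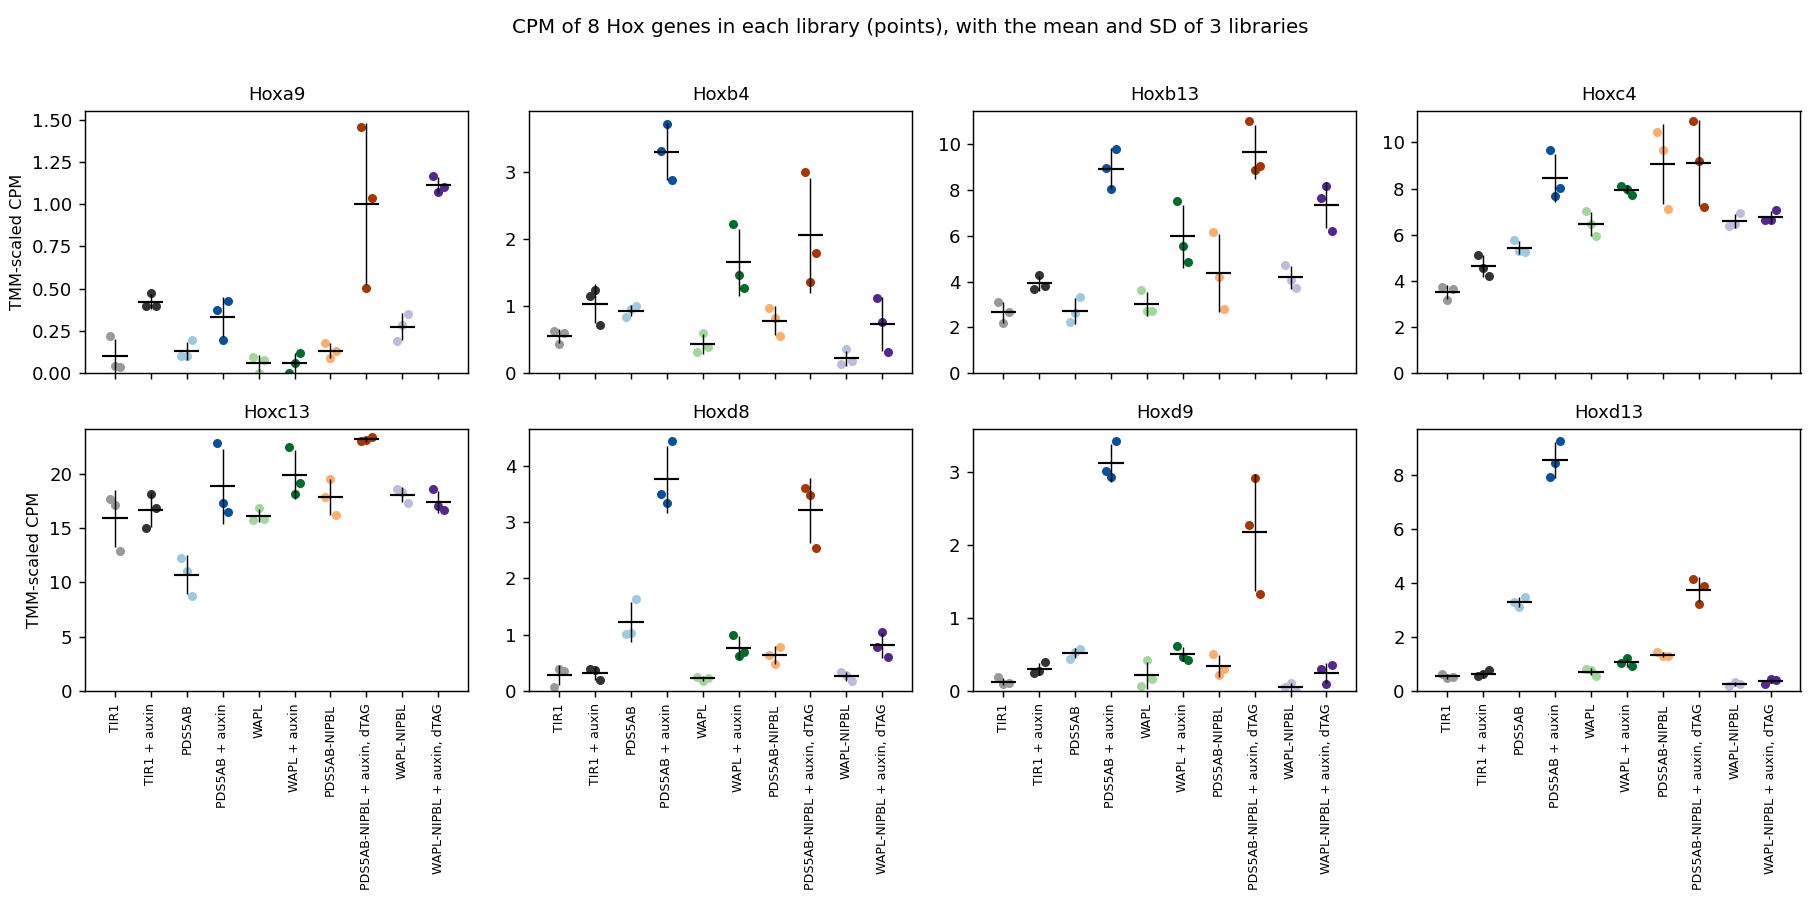
TMM-scaled CPM of 8 Hox genes in each of the 30 libraries (points), with the mean (bar) and SD (line) of the 3 libraries of a group; each panel has its own linear axis from 0. Hoxd13 stands near 3.30 CPM in untreated PDS5AB cells and 8.56 CPM after auxin, against 0.535 CPM in untreated TIR1 cells, while Hoxc13 is at 8.78 CPM or above in every library.

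The treatment effects of the PDS5AB and WAPL lines were also tested against that of the TIR1 line, 2 comparisons that share the 6 TIR1 libraries. The TIR1 effect runs across the 2 ranges of library numbers, so line and library number cannot be told apart in these differences. The PDS5AB effect was larger for 7 of the 39 members, Hoxb8, Hoxb13, Hoxc6, Hoxc12, Hoxc13, Hoxd1 and Hoxd13, while 13.9% of all tested genes had a larger and 12.4% a smaller effect. By edgeR over all groups and by DESeq2 no member was called with a smaller one, and at an unadjusted p under 0.05 Hoxa7 was. In 5 alternatives by edgeR Hoxa7 was called smaller: with no filter on low counts (adjusted p = 0.0499), with only the groups compared (0.0286), with the replicate block (0.0376), with both of these (0.0227) and without TIR1 untreated replicate 1 (0.0255). Hoxb13 differed by 1.15 ± 0.30 (adjusted p = 0.00477, edgeR), Hoxd13 by 1.12 ± 0.29 and Hoxc13 by 0.75 ± 0.18. For Hoxb9, which rose in both lines, the difference was 0.36 ± 0.24. The calls of Hoxb13 and Hoxc13 held in every alternative. Hoxc6 and Hoxd1 lost theirs without TIR1 untreated replicate 1 (adjusted p of 0.081 and 0.0636, edgeR), and Hoxb8 and Hoxd13 with no filter on low counts, Hoxd13 at 0.0519. Hoxd8 was called with a larger effect with DESeq2 (adjusted p = 0.0376) and without 3 single libraries, and Hoxc11 without 2. Hoxc12 lost it without TIR1 untreated replicate 1 or auxin replicate 3, or PDS5AB untreated replicate 3 or auxin replicate 1, up to 0.094, and Hoxb8 without replicate 1 or 2 of the untreated or auxin-treated TIR1 or the untreated PDS5AB libraries, with adjusted p up to 0.119.

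The WAPL effect was larger than the TIR1 effect for Hoxb7 (1.75 ± 0.54), Hoxb8 (2.08 ± 0.71) and Hoxd1, and smaller for Hoxa10, that is 3 and 1 of the 39 members, while 9.86% of all tested genes had a larger and 10.9% a smaller effect. Hoxd1 had 0.220, 0.176 and 0.0709 CPM in untreated TIR1 cells and was at the floor after auxin, and had 0.0309, 0.141 and 0.0787 CPM in untreated WAPL cells and 0.537, 0.499 and 0.302 CPM after auxin. Hoxa10 had 0.220, 0.0881 and 0.142 CPM in untreated TIR1 cells and 0.395, 0.633 and 0.449 CPM after auxin, and in the WAPL line went from 0.216, 0 and 0.315 CPM to the floor. The treated libraries of the 2 lines did not overlap in either gene. Hoxd1 kept its call in every alternative that tested it, which leaves out the fits of only the groups compared. Hoxa10 lost it without WAPL untreated replicate 3 (adjusted p = 0.059, edgeR). Hoxb7 lost it without TIR1 untreated replicate 2 or 3 or auxin replicate 2, or WAPL untreated replicate 1 or 3 or auxin replicate 3, up to 0.0773, and Hoxb8 without TIR1 untreated replicate 1 or 2 or auxin replicate 1 or 2, or WAPL untreated replicate 1 or 2 or auxin replicate 1, up to 0.113, and with no filter on low counts.

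The PDS5AB effect exceeded the WAPL effect for 4 of the 39 members, Hoxa10, Hoxc5, Hoxc13 and Hoxd13, while 7.38% of all tested genes had a larger and 5.11% a smaller effect. None had a smaller effect by edgeR at an adjusted or unadjusted p under 0.05, or by DESeq2. The difference was 1.82 ± 0.51 for Hoxc5, 0.81 ± 0.27 for Hoxd13 and 0.52 ± 0.18 for Hoxc13 (adjusted p of 0.016, 0.0404 and 0.049, edgeR). Hoxa10 held its call in every alternative that tested it, which leaves out DESeq2 and the fits of only the groups compared. Hoxd13 lost it without any single library other than WAPL untreated replicate 3 or auxin replicate 2, with adjusted p up to 0.251 over the alternatives. Hoxc13 lost it without PDS5AB untreated replicate 2 or 3 or auxin replicate 1, or any WAPL library but auxin replicate 1, up to 0.229, and with RLE factors and with only the groups compared, and Hoxc5 without PDS5AB auxin replicate 2 or WAPL untreated replicate 2, up to 0.0504. With only the groups compared the count was 1, and it was 2 with the replicate block in that fit and 2 with DESeq2.

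Hox levels also differed between the lines before treatment. The 4 comparisons with untreated TIR1 cells share those 3 libraries. In untreated PDS5AB cells 12 of the 39 members were higher and 3 lower, while 15.5% of all tested genes were higher and 16.5% lower. The higher ones were Hoxa4, Hoxa5, Hoxa7, Hoxa13, Hoxb1, Hoxb7, Hoxb8, Hoxc4, Hoxd8, Hoxd9, Hoxd11 and Hoxd13, and the lower ones Hoxc5, Hoxc12 and Hoxc13. Hoxd13 had 0.625, 0.484 and 0.496 CPM in TIR1 and 3.30, 3.11 and 3.48 CPM in PDS5AB cells, a log2 difference of 2.61 ± 0.20 (adjusted p = 1.6e-11, edgeR). Hoxa13, a limb and genital gene, had 0, 0 and 0.142 CPM in TIR1 and 0.708, 0.859 and 0.580 CPM in PDS5AB cells (3.70 ± 0.67). The TIR1 libraries held 0, 0 and 4 fragments of Hoxa13, and the size of its differences from TIR1 rests on these few fragments. In the lower direction, Hoxc13 had 17.7, 17.1 and 12.9 CPM in TIR1 and 12.3, 11.04 and 8.78 CPM in PDS5AB cells (-0.57 ± 0.13). The groups of all 3 genes were apart.

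Of these 15 differences 11 held in every alternative. Hoxa4 (1.73 ± 0.57) lost its call without PDS5AB replicate 1 or 2 or TIR1 replicate 1, up to 0.136, and Hoxb1, at least 2.51-fold higher, without TIR1 replicate 1 or 2 or PDS5AB replicate 3, up to 0.0762. Hoxc5 (-1.09 ± 0.38) lost it without TIR1 replicate 1 or 3 or PDS5AB replicate 2 or 3, up to 0.103, and Hoxd11, at least 1.64-fold higher, without TIR1 replicate 2 or 3 or PDS5AB replicate 3, up to 0.142, and with DESeq2. Hoxd11 was tested only through the auxin-treated PDS5AB libraries, and of the 27 members that pass the filter without them 11 were higher and 3 lower. The mean of Hoxd13 after auxin in PDS5AB cells, 3.45 RPKM, was its highest of the 10 groups, and the lowest was 0.101 RPKM in untreated WAPL-NIPBL cells.

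Untreated WAPL cells differed from TIR1 in 1 of the 39 members, Hoxc4, which was higher, while 6.62% of all tested genes were higher and 7.39% lower. By edgeR at an adjusted or unadjusted p under 0.05 and by DESeq2 no member was lower. Hoxc4 had 3.71, 3.17 and 3.65 CPM in TIR1 and 7.01, 6.45 and 5.94 CPM in WAPL cells (0.88 ± 0.15, adjusted p = 0.000118, edgeR). It was higher than in TIR1 in each of the other 3 lines too, by 0.62 ± 0.15 in PDS5AB, 0.91 ± 0.15 in WAPL-NIPBL and 1.36 ± 0.15 in PDS5AB-NIPBL cells, with no overlap of groups.

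In untreated PDS5AB-NIPBL cells 12 of the 39 members were higher and 1 lower than in TIR1, while 16.5% of all tested genes were higher and 17.8% lower. They included most of HoxC: Hoxc4, Hoxc6, Hoxc8, Hoxc9, Hoxc10 and Hoxc11 were higher, and Hoxc5 and the 5′ genes Hoxc12 and Hoxc13 were not called. Hoxc10, a gene of lumbar motor neurons, had 1.29, 1.41 and 0.815 CPM in TIR1 and 7.46, 4.74 and 5.34 CPM in PDS5AB-NIPBL cells (2.33 ± 0.26, adjusted p = 3.8e-08, edgeR). Hoxc6 differed by 2.54 ± 0.38, Hoxc8 by 2.35 ± 0.42, Hoxc9 by 1.92 ± 0.39 and Hoxc11 by 1.06 ± 0.26. These HoxC calls and that of Hoxd13 (1.31 ± 0.22) held in every alternative. The remaining ones were Hoxa5 (1.62 ± 0.64), Hoxa7 (0.94 ± 0.33), Hoxa13 (2.38 ± 0.78), Hoxb13 (0.71 ± 0.22), Hoxd8 (1.25 ± 0.41) and, lower, Hoxd1, at least 1.39-fold. Each of these 6 lost its call without some single libraries. They were TIR1 replicate 1 or 3 or PDS5AB-NIPBL replicate 1 or 3 for Hoxa5 (adjusted p up to 0.229), TIR1 replicate 2 or 3 or PDS5AB-NIPBL replicate 1 or 3 for Hoxa7 (0.137), and TIR1 replicate 1 or 2 or PDS5AB-NIPBL replicate 1 for Hoxa13 (0.13). For Hoxb13 they were TIR1 replicate 2 or PDS5AB-NIPBL replicate 1 (0.207), for Hoxd8 TIR1 replicate 1 or PDS5AB-NIPBL replicate 3 (0.136), and for Hoxd1 TIR1 replicate 1 or 2 or PDS5AB-NIPBL replicate 1 or 3 (0.117). Hoxd1 also lost its call with DESeq2 and with no filter on low counts, Hoxa5 with no filter on low counts, and Hoxd8 with only the groups compared, with and without the replicate block. The groups of Hoxa5, Hoxa7 and Hoxb13 overlapped.

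In untreated WAPL-NIPBL cells 6 of the 39 members were higher and 3 lower than in TIR1, while 13.4% of all tested genes were higher and 14.6% lower. The higher ones again included the 3′ and middle genes of HoxC, Hoxc4, Hoxc6 (1.19 ± 0.43), Hoxc8 (1.87 ± 0.44), Hoxc9 (1.44 ± 0.41) and Hoxc10 (0.99 ± 0.28), with Hoxb13 (0.64 ± 0.22). Lower were Hoxa2, at least 1.49-fold, Hoxb7 (-1.56 ± 0.49) and Hoxd13, which had 0.190, 0.317 and 0.244 CPM (-1.06 ± 0.30, adjusted p = 0.0219, edgeR). Hoxa2 was tested only through the auxin-treated PDS5AB libraries, and of the 27 members that pass the filter without them 6 were higher and 2 lower. Hoxc4 and Hoxc8 held in every alternative, and the other 7 were each lost without some single library, with adjusted p up to 0.184. They were lost without WAPL-NIPBL replicate 1 (Hoxa2, Hoxb13, Hoxc6, Hoxd13), replicate 2 (Hoxa2, Hoxb7, Hoxb13, Hoxc6) or replicate 3 (Hoxd13), or without TIR1 replicate 1 (Hoxd13) or 2 (Hoxa2, Hoxb7, Hoxb13, Hoxc6). Without TIR1 replicate 3 the count of 9 fell to 4, as Hoxb7, Hoxb13, Hoxc6, Hoxc9 and Hoxc10 lost their calls. None of the 3 lower calls stood in the fits of only the groups compared, where Hoxa2 and Hoxb7 were not tested and Hoxd13 was not called, and Hoxd13 also lost its call with no filter on low counts. Hoxb4, not called over all groups with the filter, was called lower with DESeq2 (adjusted p = 0.0344), and by edgeR with no filter (0.0360), with only the groups compared (0.0373), with the replicate block (0.0301) and without WAPL-NIPBL replicate 2 (0.0360).

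The summed CPM of HoxD changed by a larger factor than those of HoxB and HoxC in 4 of the 5 treatments. It averaged 5.78 in untreated and 18.4 in auxin-treated PDS5AB cells, a ratio of 3.19, and 2.46 and 10.1 in PDS5AB-NIPBL cells, a ratio of 4.10. In WAPL cells it went from 1.30 to 2.96 CPM (ratio 2.28) and in WAPL-NIPBL cells from 0.673 to 1.50 CPM (ratio 2.23), while the TIR1 line went from 1.13 to 1.39 CPM (ratio 1.23). Of the 3 clusters HoxC had the smallest ratio in all 5 treatments, 1.89 on PDS5A and PDS5B loss, 1.33 on WAPL loss, 1.27 and 1.12 in the NIPBL-degron lines and 1.17 in TIR1, although it held the most RNA, between 24.6 and 60.0 CPM on average. For HoxB the ratio was 1.48 in TIR1, 2.46 in PDS5AB and 1.81 in WAPL cells. Treated and untreated libraries did not overlap in any of these 3 clusters or in any line.

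**Figure D5:**
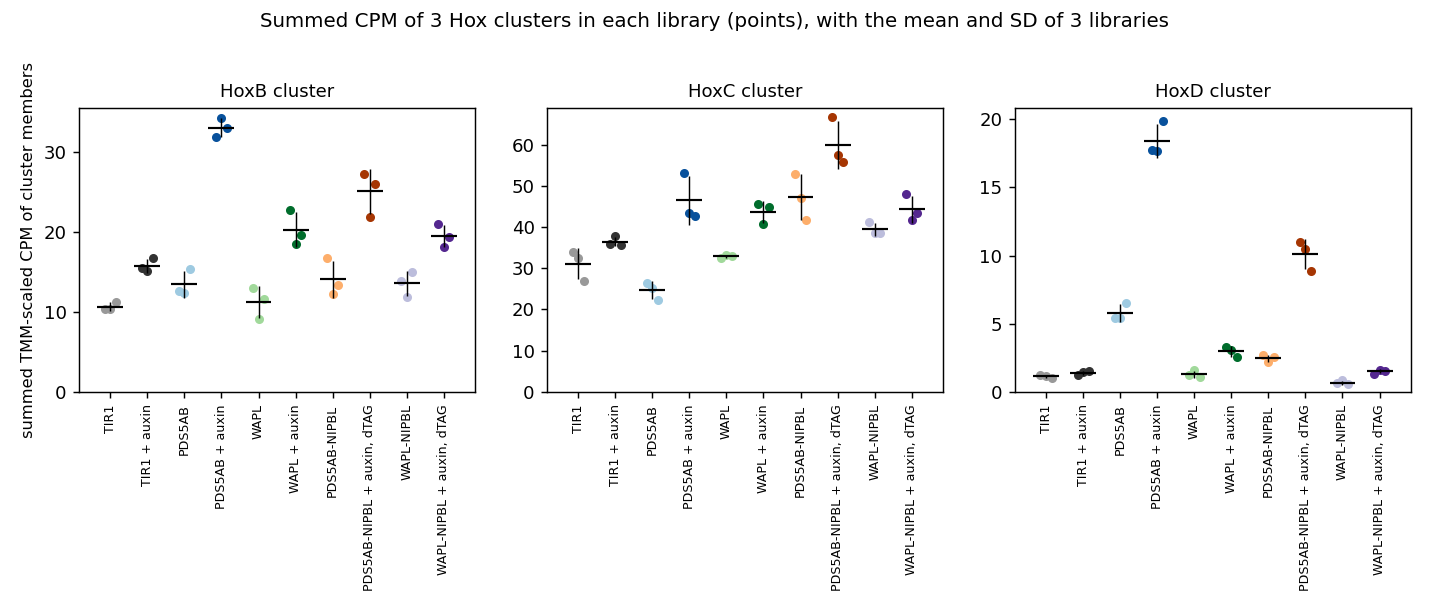
Summed TMM-scaled CPM of the members of HoxB, HoxC and HoxD in each library (points), with the mean (bar) and SD (line) of 3 libraries; the axes start at 0 and differ between clusters. HoxC is highest throughout, from 24.6 to 60.0 CPM on average, and HoxD is near 1.13 CPM in untreated TIR1 cells and 18.4 CPM in auxin-treated PDS5AB cells.

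By position, the 12 members of paralog groups 1 to 4, of which 8 were tested, gave 6 higher calls on PDS5A and PDS5B loss, 5 on WAPL loss, 1 each in the NIPBL-degron lines and 1 in TIR1. The 11 members of groups 5 to 8, also with 8 tested, gave 6, 3, 3, 1 and 1 for PDS5AB, WAPL, PDS5AB-NIPBL, WAPL-NIPBL and TIR1. The 16 posterior members of groups 9 to 13, with 14 tested, gave 12, 5, 9, 2 and 3, and without Hoxd10 and Hoxd11 the PDS5AB count is 10 of 12 and the PDS5AB-NIPBL count 7 of 12. Of all tested genes 25.8%, 17%, 11.4%, 5.11% and 10.4% were called higher in the same 5 lines. On WAPL loss called genes toward the 3′ ends included Hoxa3, Hoxb1, Hoxb4 and Hoxd1, and the median log2 fold change was 1.61 in groups 1 to 4 and 0.57 in groups 9 to 13. On PDS5A and PDS5B loss those medians were 1.43 and 1.42, the latter 1.32 without Hoxd10 and Hoxd11. Whether the effect depends on position was not tested.

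Hox proteins bind DNA with the TALE homeodomain cofactors of the PBX, MEIS and PKNOX families. Of these 9 genes 4 rose on PDS5A and PDS5B loss, 4 on WAPL loss, 2 on the combined loss of PDS5A, PDS5B and NIPBL and none on that of WAPL and NIPBL, and in TIR1 1 rose and 2 fell. Of all tested genes 25.8% rose and 20.2% fell on PDS5A and PDS5B loss, and 17% and 15.8% on WAPL loss. In PDS5AB-NIPBL cells 11.4% rose and 8.06% fell, in WAPL-NIPBL 5.11% and 3.45% and in TIR1 10.4% and 9.59%. Among the cofactors, Meis3 rose by 0.77 ± 0.17 and Pknox2 by 0.54 ± 0.13 on PDS5A and PDS5B loss. The caudal genes Cdx1 and Cdx2 drive Hox genes in the embryo. Cdx2 rose from 1.45 to 9.90 CPM in TIR1 cells after auxin (2.78 ± 0.23, adjusted p = 9.32e-10, edgeR) and Cdx1 by 0.98 ± 0.18, while on PDS5A and PDS5B loss their log2 fold changes were -0.38 ± 0.26 and 0.11 ± 0.18, and on WAPL loss -0.31 ± 0.22 and 0.28 ± 0.18, with none of these called. In PDS5AB-NIPBL cells both rose, by 0.69 ± 0.19 and 0.55 ± 0.18. Of the 5 Cdx and Evx genes, 4 tested, 1 rose and 1 fell on PDS5A and PDS5B loss, 0 and 0 changed on WAPL loss, 2 and 0 in PDS5AB-NIPBL, 0 and 1 in WAPL-NIPBL and 2 and 0 in TIR1 cells. The one that rose on PDS5A and PDS5B loss was Cdx4, named here after its values were seen, from 0.476 to 1.58 CPM (1.72 ± 0.42, adjusted p = 0.0012, edgeR).

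Retinoic acid induces Hox genes from the 3′ end. Of 19 genes of its signalling, 18 tested, 9 rose and 1 fell on PDS5A and PDS5B loss, 6 rose and 1 fell on WAPL loss, 8 and 0 changed in PDS5AB-NIPBL, 4 and 1 in WAPL-NIPBL and 2 and 4 in TIR1 cells. Aldh1a2, which makes retinoic acid, rose in all 5 treatments, by 2.13 ± 0.20, 1.70 ± 0.23, 1.45 ± 0.22, 1.12 ± 0.24 and 0.83 ± 0.25 in that order, and Stra6, the retinol transporter, in the first 3, by 2.02 ± 0.29, 1.71 ± 0.32 and 1.27 ± 0.40. Polycomb subunits moved in both directions, with 10 of 32 higher and 11 lower on PDS5A and PDS5B loss, and 7 and 13 on WAPL loss. In the PDS5AB-NIPBL line 4 were higher and 10 lower, in the WAPL-NIPBL line 4 and 5, and in TIR1 6 and 4. Of all tested genes 25.8% were higher and 20.2% lower on PDS5A and PDS5B loss, and 17% and 15.8% on WAPL loss. The shares were 11.4% and 8.06% in PDS5AB-NIPBL, 5.11% and 3.45% in WAPL-NIPBL and 10.4% and 9.59% in TIR1 cells. Cbx8 rose by 1.47 ± 0.18 on PDS5A and PDS5B loss, where the median log2 fold change of the 32 subunits was -0.05. Of 12 genes for the opposing MLL proteins, demethylases and boundary factors, 1 rose and 5 fell in each of those 2 depletions, 0 and 3 in PDS5AB-NIPBL, 0 and 2 in WAPL-NIPBL, and 2 and 0 in TIR1 cells. Wdr5, a subunit of the MLL complexes, fell by 1.14 ± 0.06 and 0.82 ± 0.06 on the log2 scale in the first 2.

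Genes that flank the clusters were called in both directions, and no test compared them with the members. Of all tested genes 25.8% rose and 20.2% fell on PDS5A and PDS5B loss, 17% and 15.8% on WAPL loss and 10.4% and 9.59% in TIR1. The shares were 11.4% and 8.06% in PDS5AB-NIPBL and 5.11% and 3.45% in WAPL-NIPBL cells. On PDS5A and PDS5B loss, 0 of 8 flanking genes of HoxA rose and 2 fell, and the counts were 2 and 2 of 8 for HoxB, 1 and 2 of 7 for HoxC and 2 and 2 of 6 for HoxD. On WAPL loss they were 1 and 1, 0 and 2, 0 and 0, and 2 and 2, and after auxin in TIR1 1 and 0, 2 and 1, 0 and 1, and 3 and 1. Evx1, the homeobox gene beyond Hoxa13, fell on PDS5A and PDS5B loss (-1.57 ± 0.42). Ttll6, beyond Hoxb13, rose by 1.15 ± 0.15 there and by 1.21 ± 0.16 in PDS5AB-NIPBL cells, while Calcoco2, further out on that side, fell on WAPL loss (-1.22 ± 0.14) and rose by 0.48 ± 0.14 in PDS5AB-NIPBL cells. Lnpk, upstream of HoxD, rose by 0.43 ± 0.13 on PDS5A and PDS5B loss and by 0.54 ± 0.13 in TIR1, and on the other side Mtx2 rose by 0.21 ± 0.06 on WAPL loss. In the combined lines 3 HoxB flanking genes rose and 1 HoxD flanking gene fell in PDS5AB-NIPBL, while Evx1 alone was called in WAPL-NIPBL cells, at 0.164 CPM before and 0.00967 CPM after treatment (adjusted p = 0.0394, edgeR).

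Fragments were counted without regard to strand, and reads of a gene and of an antisense partner cannot be told apart where their exons overlap. Exon bases shared with another gene were found in 7 HoxA, 3 HoxB, 2 HoxC and 4 HoxD members, and fragments lying in them were dropped. Hoxd3 kept 37.2% of its exon bases, Hoxb3 47.1%, Hoxd4 47.7% and Hoxa11 65.0%, and these 4 are among the members not tested. Hotairm1, a noncoding RNA within HoxA, rose by 1.25 ± 0.30 on PDS5A and PDS5B loss, from 1.10 to 2.63 CPM, and by 1.10 ± 0.33 on WAPL loss, from 0.766 to 1.68 CPM. In the gap between Hoxb13 and Hoxb9, Gm53 had 32.9 CPM before and 41.03 CPM after PDS5A and PDS5B loss (0.32 ± 0.08). Beyond HoxA, Gm8129 fell by 0.98 ± 0.41 and 1.15 ± 0.43 in the same 2 depletions.

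Markers of the cell state were also called in these treatments. Of all tested genes 20.2% were called lower on PDS5A and PDS5B loss and 15.8% on WAPL loss. The share called lower was 8.06% in PDS5AB-NIPBL, 3.45% in WAPL-NIPBL and 9.59% in TIR1 cells. Of 12 pluripotency markers 12 fell on PDS5A and PDS5B loss, 11 on WAPL loss, 11 on loss of NIPBL with PDS5A and PDS5B and 10 on loss of NIPBL with WAPL, and in TIR1 5 fell and 1 rose. Their summed CPM was 6123 to 6445 in untreated and 3547 to 4005 in treated PDS5AB libraries, and 5655 to 6072 against 3968 to 4266 in WAPL libraries. It was 5951 to 6393 against 4525 to 4685 in PDS5AB-NIPBL, 5753 to 5927 against 4556 to 4744 in WAPL-NIPBL and 5876 to 6012 against 5249 to 5546 in TIR1 libraries. Utf1 fell in all 5 treatments, by 1.88 in TIR1 to 2.48 in PDS5AB-NIPBL cells on the log2 scale. No pluripotency marker was at 0 in any group. The part of this shift in the Hox changes was not tested.

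Of 10 markers each, with 9 mesoderm, 8 neural and 9 endoderm markers tested, 3 mesoderm, 4 neural and 5 endoderm markers rose and 1, 2 and 1 fell on PDS5A and PDS5B loss, and 3, 3 and 6 rose and 1, 2 and 1 fell on WAPL loss. In PDS5AB-NIPBL cells 2, 2 and 4 rose and 1, 2 and 0 fell, in WAPL-NIPBL cells 2, 1 and 4 rose and 0, 2 and 0 fell, and in TIR1 3, 0 and 2 rose and 0, 3 and 1 fell. Summed endoderm CPM ranged from 172 to 206 in untreated and 234 to 292.6 in treated PDS5AB libraries, and from 276 to 324 and 265 to 289 in WAPL libraries. Summed mesoderm CPM lay between 15.7 and 35.2 and summed neural CPM between 68.5 and 140 over all libraries. Msgn1, Lhx1, Neurog2, Pax3 and Afp were at 0 in some groups. Of the 10 fibroblast markers, with summed CPM between 6.65 and 25.9, 4 were tested. Of these 3 rose on PDS5A and PDS5B loss, 1 rose and 3 fell on WAPL loss, 1 rose and 1 fell in PDS5AB-NIPBL, and 1 fell in WAPL-NIPBL and 1 in TIR1 cells. Twist2, Postn, Lum, Dcn, Col3a1 and Prrx1 were at 0 in some groups and under 0.21 CPM in all. For comparison, 25.8% of all tested genes rose and 20.2% fell on PDS5A and PDS5B loss, and 17% and 15.8% on WAPL loss. The shares were 11.4% and 8.06% in PDS5AB-NIPBL, 5.11% and 3.45% in WAPL-NIPBL and 10.4% and 9.59% in TIR1 cells. The part of these markers in the Hox changes was not tested either.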

How the data were processed

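For 30 polyA RNA-seq libraries the authors deposited raw fragment counts by gene, with gene starts, ends, strands and exon lengths. Per the submitters' processing notes the authors used cutadapt, STAR 2.7.7a, featureCounts 2.0.1 and deepTools with builds mm10 and GRCm38.p6. Per the file headers the count call names no strand option and drops fragments that overlap exons of more than 1 gene. Gene symbols came from reference tables by gene ID, with 55154 of 55421 IDs matched. The members and the gene lists were chosen with earlier results of these data known.

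Counts were fitted with edgeR 4.0.16 in R 4.3.3 (filterByExpr with a minimum count of 10, TMM factors, 1 mean per group, quasi-likelihood test) over all 30 libraries, leaving 20 residual degrees of freedom. In each of 14 contrasts p-values were adjusted by Benjamini-Hochberg over 19868 tested genes, with 0.05 as the threshold for a call. The fit was checked on simulated data, where it missed the criterion first set for the share of changed genes recovered and met criteria set afterwards on the estimates and on false calls. Values are TMM-scaled CPM and RPKM computed from these counts, SE is from edgeR, and the floor is 3 fragments per library. Depth ran from 19632704 to 45539021 fragments per library, which limits the precision for members with a few fragments. The fit was repeated with DESeq2 1.42.0, with RLE factors, without the low-count filter, with only the groups compared, with the replicate number as a block, with both of these, and without each library in turn.

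In the 4 depletion comparisons libraries of the same number deviated together, with correlations from 0.109 to 0.333 in every pair, each library correlating best with its own number. The pairing is read from the data, since the labels do not say what a number marks. Named were members called in any contrast, the leading and end members of each cluster, called flanking genes, at most 2 called genes per other list, and called transcripts in or within 100 kb of a cluster with a mean of at least 10 counts. Genes of the other lists given with a fold change, apart from Cdx4, had the largest absolute changes among well-counted called genes. They are therefore extremes of their lists. Some genes that the rule would name are not reported here, and counts over the members and lists include them.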

Additional observations from a re-analysis of the deposited data

Results flagged for a closer look

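Some Hox genes had treatment effects that differed between lines by a direct test of the difference (edgeR, adjusted p under 0.05). Values are differences of log2 fold changes ± SE, and the comparisons share libraries where they name the same line. Differences from the TIR1 effect also run across the ranges of library numbers given above.

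The PDS5AB effect exceeded the TIR1 effect by 1.81 ± 0.62 for Hoxb8, 1.15 ± 0.30 for Hoxb13 and 2.02 ± 0.59 for Hoxc6. It did so by 0.63 ± 0.20 for Hoxc12, 0.75 ± 0.18 for Hoxc13, 2.85 ± 0.81 for Hoxd1 and 1.12 ± 0.29 for Hoxd13. The WAPL effect exceeded the TIR1 effect by 1.75 ± 0.54 for Hoxb7, 2.08 ± 0.71 for Hoxb8 and 3.87 ± 0.91 for Hoxd1, and differed by -3.98 ± 1.11 for Hoxa10.

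The PDS5AB effect exceeded the WAPL effect by 5.08 ± 1.17 for Hoxa10, 1.82 ± 0.51 for Hoxc5, 0.52 ± 0.18 for Hoxc13 and 0.81 ± 0.27 for Hoxd13. With the NIPBL degron added, the PDS5AB effect differed by -1.81 ± 0.53 for Hoxb8, -0.63 ± 0.19 for Hoxc4, -1.60 ± 0.46 for Hoxc6 and -1.53 ± 0.35 for Hoxc11. The sizes for Hoxa10 and Hoxd1 rest on groups at the floor and depend on the prior count of the fit, so only their sign can be read.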

How the results depend on the processing

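Of 116 calls of Hox members over the 14 contrasts, 68 held in every alternative that could test them and 48 were lost in at least 1. No member reversed direction in any alternative. Members near 1 CPM or below carry few fragments, and this depth limits their calls.

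The count of called members moved by more than 1.5 times in these alternatives. For auxin in TIR1 it was 5, and 9 with the replicate block, although same-numbered libraries there did not deviate together (correlations from -0.010 to 0.057). For WAPL-NIPBL it was 4, and 11 with the block and only the groups compared. For untreated WAPL against TIR1 it was 1, and 2 with no filter on low counts. For PDS5AB minus WAPL it was 4, and 2 with DESeq2, 1 with only the groups compared and 2 with the block on those groups. For PDS5AB-NIPBL minus PDS5AB it was 4, and 7 with the replicate block and 1 with only the groups compared. For WAPL-NIPBL minus WAPL it was 0, and 2 with no filter, 1 with the replicate block and 2 with the block on the groups compared. The cause was not tested. In the other contrasts the replicate block kept the counts within 1.5 times.

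With each library left out in turn, counts ran from 2 (without auxin replicate 3) to 4 in TIR1, 22 to 27 in PDS5AB, 12 to 13 in WAPL, 9 to 14 in PDS5AB-NIPBL and 1 (without untreated replicate 3) to 5 in WAPL-NIPBL. Against untreated TIR1 they ran from 12 to 14 for PDS5AB, stayed at 1 for WAPL, and ran from 8 (without PDS5AB-NIPBL replicate 1) to 15 for PDS5AB-NIPBL and 4 (without TIR1 replicate 3) to 10 for WAPL-NIPBL. For the differences they ran from 6 to 7 for PDS5AB minus TIR1, 2 (without WAPL untreated replicate 3) to 4 for WAPL minus TIR1, 1 (without WAPL untreated replicate 2) to 4 for PDS5AB minus WAPL, 1 (without PDS5AB-NIPBL untreated replicate 1) to 4 for PDS5AB-NIPBL minus PDS5AB and 0 to 1 for WAPL-NIPBL minus WAPL. The 6 members at 1 RPKM or more in untreated TIR1 stayed 6 throughout.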
